A study of Homo sapiens with 18 samples.

Results

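Knockdown of NFYA was compared with knockdown of KLF5 in LNCaP cells that received vehicle in place of androgen. LNCaP is an established line from a human prostate cancer metastasis that responds to androgen and makes prostate-specific antigen. The comparison took 5 of the 18 RNA-seq samples of the series, picked by their labels: 3 libraries with a pool of siRNAs to NFYA (siNFYA, replicates 1, 2 and 3) and 2 libraries with a pool of siRNAs to KLF5 (siKLF5, replicates 2 and 3). Replicate 1 of siKLF5 in vehicle was not analysed here. All cells spent 48 h in medium with 5% charcoal-stripped serum, which lacks steroids, and then had fresh medium with vehicle (96% ethanol) for 24 h. The same line with a pool of non-targeting siRNAs in vehicle (control, 3 libraries) shows on which side of control each knockdown lay. The same contrast in cells given the synthetic androgen R1881 (10 nM, 24 h; 3 libraries of siNFYA and 3 of siKLF5) shows how it depended on androgen. The labels do not say that libraries came from separate cultures, so p-values measure the spread between these libraries, which may be technical.

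NF-Y is a complex of the subunits NFYA, NFYB and NFYC that binds the CCAAT box, a short element found upstream of many genes for the cell cycle and for metabolism. NFYA makes the sequence contact, and NFYB and NFYC form a histone-like pair that holds it. KLF5 belongs to the zinc-finger proteins of the KLF and SP family, which bind CACCC and GC-rich elements, and is known from epithelial cells of prostate, gut and breast. In prostate cells androgen raises kallikrein genes such as KLK3, which encodes prostate-specific antigen, and lowers another set of genes.

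Library totals were 4416653 to 5336700 estimated counts with siNFYA, 6661047 to 6872421 with siKLF5 and 6174633 to 6411869 with control, so depth also differed between the groups compared. All 13 luminal prostate markers were measured, with a summed level of 4880 to 4950 CPM (counts scaled to library size) with siNFYA, 5180 to 5230 with siKLF5 and 5340 to 5360 with control. The basal marker KRT5 and the blood markers CD3E and HBB were at 0 in all 3 groups. The 6 blood and endothelial markers still summed to 8.57 to 13.4 CPM with siNFYA, 12.1 to 13.6 with siKLF5 and 13.3 to 14.3 with control. The 4 neuroendocrine markers summed to 1.07 to 2.33 CPM with siNFYA, 1.06 to 1.24 with siKLF5 and 1.29 to 1.79 with control. Transcripts with a retained intron took 2.87% ± 0.201 of counts with siNFYA (SD, n = 3) and 2.59% ± 0.125 with siKLF5 (SD, n = 2). The ranges overlapped, at 2.65% to 3.05% with siNFYA and 2.50% to 2.68% with siKLF5. Control was lower than both, at 2.18% ± 0.0419 (SD, n = 3). Mitochondrial mRNA took 2.81% with siNFYA, 2.71% with siKLF5 and 1.89% with control (means). The part of these differences in the results was not tested. The share of counts on AC010970.1, a gene like rRNA, was 2.85% in siNFYA replicate 3, with 0.120% and 0.412% in the other siNFYA libraries, against 0.153% and 0.319% with siKLF5. The effect of leaving out siNFYA replicate 3 therefore stands beside the main counts.

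The targeted genes were read first. NFYA (chromosome 6, 41072945 to 41099976 in GRCh38) stood at 48.0, 44.0 and 46.7 CPM with siNFYA, against 74.5 and 71.6 CPM with siKLF5 and 68.3, 71.2 and 73.3 CPM with control. CPM here are scaled for library composition by TMM. Every siNFYA library lay below every other one. The change was -0.66 on the log2 scale (SE 0.0694), 1.58-fold lower with siNFYA, with an adjusted p of 1.03e-06 in edgeR's quasi-likelihood test. A gene passed at an adjusted p under 0.05.

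KLF5 (chromosome 13, 73054976 to 73077542) was near the lower limit of detection in vehicle. It had 19, 31 and 17 counts with siNFYA, against 7 and 22 counts with siKLF5 and 33, 30 and 22 counts with control. The library labelled siKLF5 replicate 2 lay far below all others, with 1.02 CPM before scaling (95% exact Poisson interval 0.41 to 2.10, counting error only). The library labelled siKLF5 replicate 3 had 3.30 CPM before scaling (2.07 to 5.00), just below the lowest control library at 3.54 CPM (2.22 to 5.36), and their intervals overlapped. The log2 change of siNFYA against siKLF5 was 1.07 (SE 0.366) and did not pass (adjusted p 0.078). It was 2.13 (adjusted p 0.0222) without the library labelled siKLF5 replicate 3, and over all alternatives the adjusted p ran from 0.016 to 0.747. In R1881, where KLF5 was more abundant, it had 22.2, 27.9 and 29.8 CPM with siNFYA, against 11.8, 11.4 and 15.2 CPM with siKLF5. That difference of 1.07 passed (adjusted p 0.00031). Since the library labelled siKLF5 replicate 3 does not show a clear loss of its target, the main counts and the counts of list members in vehicle are also given without it. The fit then holds 1 siKLF5 library, assumed to vary like the other groups.

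The other NF-Y subunits did not pass. NFYB had 36.7 to 39.0 CPM with siNFYA, against 34.3 and 37.6 CPM with siKLF5 (log2 0.07, adjusted p 0.723). NFYC had 47.5 to 54.0 CPM with siNFYA, against 47.9 and 49.3 CPM with siKLF5 (log2 0.09, adjusted p 0.565). Of the 19 KLF and SP genes tested, 0 passed in edgeR in vehicle, while 3 did at an unadjusted p under 0.05 and 0 in DESeq2. KLF5 itself was the gene of this list that passed without the library labelled siKLF5 replicate 3, and again with no count filter.

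**Figure D1:**
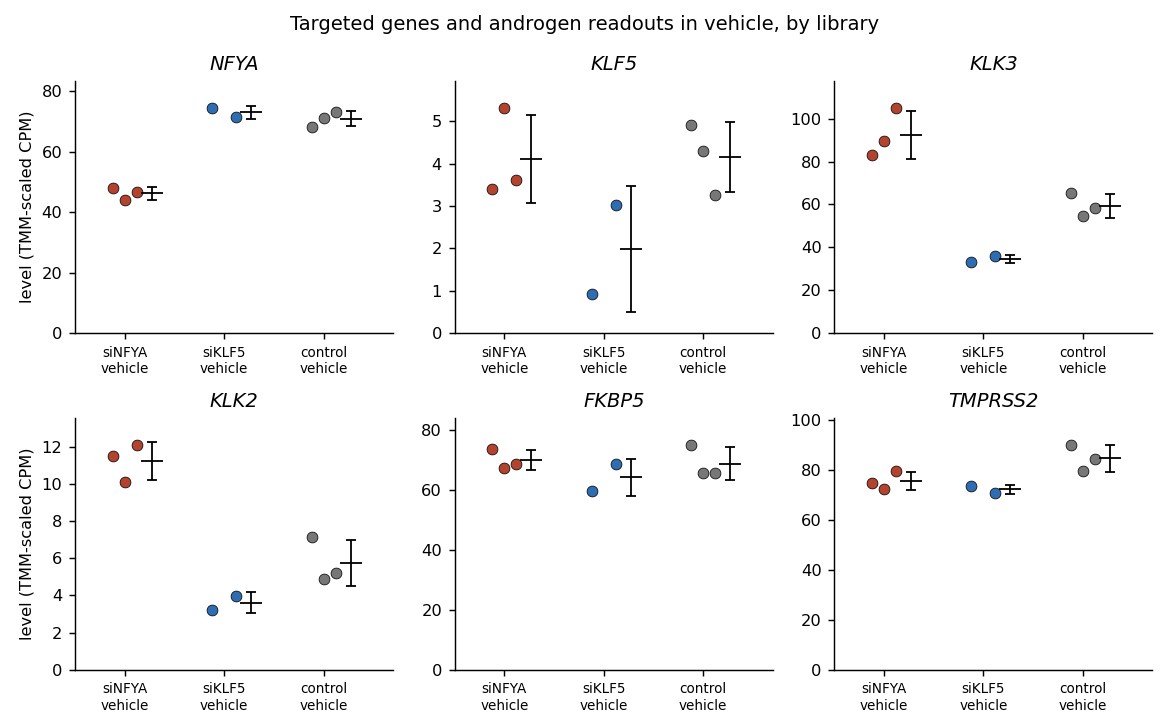
TMM-scaled CPM of NFYA, KLF5, KLK3, KLK2, FKBP5 and TMPRSS2 in each vehicle library; points are libraries, and the bar beside them is the mean ± SD of the group (n = 3 siNFYA, 2 siKLF5, 3 control). NFYA is lowest with siNFYA, one siKLF5 library lies next to control for KLF5, and KLK3 and KLK2 are highest with siNFYA and lowest with siKLF5, while FKBP5 and TMPRSS2 of the 2 knockdowns lie close together.

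Across the 12922 genes tested, 774 passed between siNFYA and siKLF5 (5.99%). Of these, 304 were higher with siNFYA (2.35%) and 470 were lower (3.64%). Most differences were small: the median absolute log2 change of the genes that passed was 0.291, 60 of them changed at least 1.5-fold (25 higher, 35 lower) and 22 at least 2-fold (14 higher, 8 lower). In 760 of the 774 genes no siNFYA library overlapped a siKLF5 library, which was so in 33.7% of all genes tested. Without the library labelled siKLF5 replicate 3, 225 genes passed (50 higher, 175 lower), of which 207 were among the 774; 37 changed at least 1.5-fold (10 higher, 27 lower) and 12 at least 2-fold (4 higher, 8 lower). Without siKLF5 replicate 2 there were 1002 (487 higher, 515 lower), with 549 of the 774, and 119 and 31 of them passed those folds; without siNFYA replicate 3 there were 771 (255 higher, 516 lower), with 586 of them. Without siNFYA replicate 1 the count was 472 and without siNFYA replicate 2 it was 396. The split moved with the scaling, from 304 higher and 470 lower to 229 and 573 with library totals and 247 and 582 without mitochondrial and rRNA-like genes. The median over all genes shifted by less than 0.1 under each of these.

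Against control, which shares its libraries between both comparisons, siNFYA had 1586 genes that passed (12.3%), 780 higher (6.04%) and 806 lower (6.24%), and siKLF5 had 108 (0.836%), 75 higher (0.58%) and 33 lower (0.255%). These counts rest on 3 libraries of siNFYA and 2 of siKLF5. The siKLF5 count depended on the setting, with 7 by limma on log2(TPM + 1) and 333 with no count filter. Without the library labelled siKLF5 replicate 3, siKLF5 had 21.

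Several of the largest changes rested on 1 library. In 14 of the 774 genes the libraries of the groups overlapped, and 5 of these were among the 14 genes that were at least 2-fold higher. STUM had 27.4, 20.04 and 209 CPM with siNFYA, against 14.1 and 26.0 CPM with siKLF5. TSPAN7, a tetraspanin of the cell surface, had 17.9, 13.2 and 159 CPM with siNFYA, against 9.58 and 16.7 CPM with siKLF5. PLCG2, a phospholipase of immune receptor signalling, had 9.49, 5.65 and 42.2 CPM with siNFYA, against 3.33 and 8.26 CPM with siKLF5. In all 3 the high value was siNFYA replicate 3, the library with the high rRNA-like share. PCSK5, a proprotein convertase, was high in siNFYA replicate 2 alone, at 4.48, 28.3 and 4.48 CPM with siNFYA, against 2.53 and 4.54 CPM with siKLF5. These genes were singled out after their values were seen, and they were kept out of the largest changes named next.

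**Figure D2:**
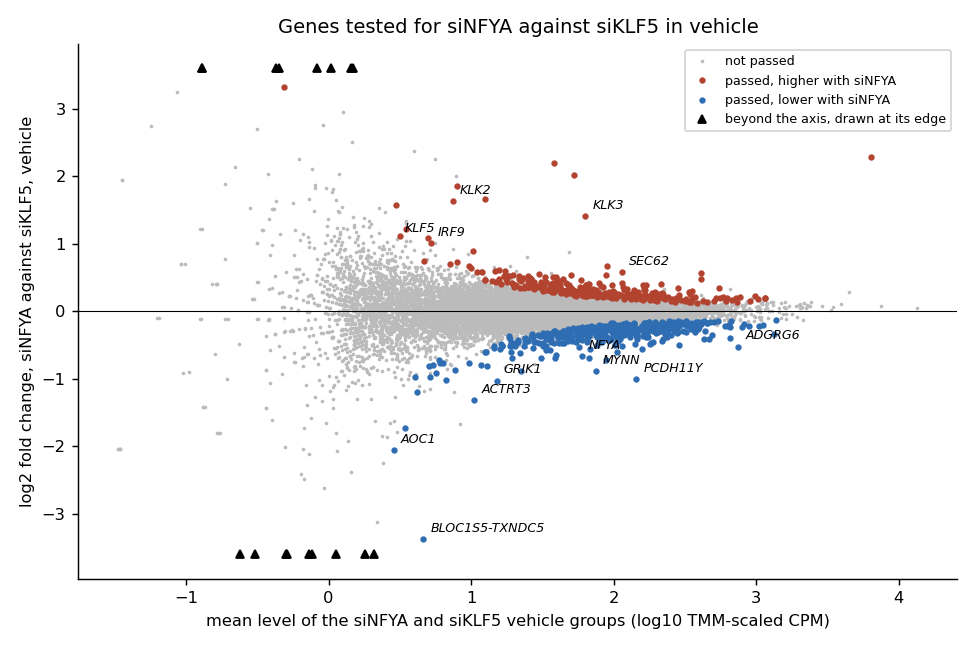
Log2 fold change of siNFYA against siKLF5 in vehicle, plotted against the mean level of the 2 groups (log10 of TMM-scaled CPM), for the 12922 genes tested. Genes that passed are coloured, 304 higher and 470 lower with siNFYA, and most lie close to the zero line; KLK3 and KLK2 stand out above it, and PCDH11Y, MYNN and ACTRT3 below it.

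The kallikreins KLK3 and KLK2 gave the largest rises among genes with non-overlapping libraries and at least 5 CPM. KLK3 (chromosome 19, 50854915 to 50860764) had 83.1, 89.4 and 105 CPM with siNFYA, against 33.3 and 35.8 CPM with siKLF5 and 65.4, 54.4 and 58.3 CPM with control. The 3 groups did not overlap: siNFYA was highest, control in the middle and siKLF5 lowest. KLK3 was 2.67-fold higher with siNFYA than with siKLF5 (log2 1.42, SE 0.0803, adjusted p 1.2e-11). Against control its log2 change was 0.63 with siNFYA (adjusted p 4.52e-07) and -0.78 with siKLF5 (adjusted p 3.15e-06), so both knockdowns passed on opposite sides.

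KLK2, the neighbouring and closely related secreted protease on chromosome 19, had 11.5, 10.1 and 12.1 CPM with siNFYA, against 3.19 and 3.99 CPM with siKLF5 and 7.15, 4.87 and 5.18 CPM with control. The order of the groups was that of KLK3. KLK2 was 3.10-fold higher with siNFYA than with siKLF5 (log2 1.63, SE 0.175, adjusted p 1.22e-06), and its change of -0.67 between siKLF5 and control did not pass (adjusted p 0.159). KLK3 and KLK2 passed under all 15 alternatives, with log2 changes of 1.31 to 1.49 for KLK3 and of 1.23 to 1.8 for KLK2.

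KLK4, another prostate kallikrein of the same cluster, had 26.0, 30.3 and 30.7 CPM with siNFYA, against 18.5 and 24.1 CPM with siKLF5. It was higher by 0.44 (SE 0.104, adjusted p 0.0102), but it did not pass without siKLF5 replicate 2 (adjusted p 0.193) or siNFYA replicate 2 (0.0581). Over the alternatives its adjusted p ran from 0.00154 to 0.193.

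The 250 bases before the start of KLK3 are shown because this gene had the smallest p of the comparison; they come from RefSeq on GRCh38.p14, plus strand, chr19:50854665-50854914. Capitals mark motifs that were searched on both strands. They are CACCC, which reads GGGTG on the other strand. They are also GGGCGG, which reads CCGCCC on the other strand. The motif AGAACA, the half-site letters of androgen response elements, was added after the results were seen.

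KLK3: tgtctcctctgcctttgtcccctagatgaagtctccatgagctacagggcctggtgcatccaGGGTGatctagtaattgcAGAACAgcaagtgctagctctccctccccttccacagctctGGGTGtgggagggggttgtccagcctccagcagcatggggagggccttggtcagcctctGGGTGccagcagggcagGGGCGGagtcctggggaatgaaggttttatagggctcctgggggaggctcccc

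The window holds 3 CACCC matches, all on the minus strand, 1 GGGCGG, 1 AGAACA and 0 CCAAT. A match is a description of letters and not a binding site. The matching windows of KLK3 and KLK2 were alike: 205 of 241 aligned bases were identical (85.1%), and the longest shared run was 80 bases.

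Most androgen-induced genes did not move with the kallikreins. Of 55 tested, 4 were higher (KLK2, KLK3, KLK4 and CREB3L4), 2 were lower (ADAMTS1 and ABCC4) and 49 did not pass, with a median of -0.009 against 0.0049 over all genes. In the fit without the library labelled siKLF5 replicate 3, 3 were higher and 1 was lower. FKBP5, a co-chaperone of steroid receptors and a sensitive androgen readout, had 73.8, 67.5 and 68.8 CPM with siNFYA, against 59.8 and 68.7 CPM with siKLF5 (log2 0.13, SE 0.0649, adjusted p 0.271). TMPRSS2, a surface serine protease, had 74.8, 72.3 and 79.5 CPM with siNFYA, against 73.5 and 70.9 CPM with siKLF5 (log2 0.06, SE 0.0584, adjusted p 0.616).

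Androgen-repressed genes rise when androgen is withdrawn. Of 26 tested, 19 did not pass, 0 were higher and 7 were lower, where 3.64% of all genes were lower: GRIK1, PCDH11X, OPRK1, SI, UGT2B17, CAMK2N1 and UGT2B15. Their list had a median of -0.128, and 7 of the 26 lay above 0, against 51.2% of all genes. Without the library labelled siKLF5 replicate 3, 6 were lower.

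OPRK1, the kappa opioid receptor, had 50.8, 51.2 and 52.9 CPM with siNFYA, against 84.2 and 81.6 CPM with siKLF5 and 85.1, 90.1 and 85.4 CPM with control. The siKLF5 libraries lay just below control, and siNFYA lay well below both (log2 -0.68 against siKLF5, SE 0.0674, adjusted p 3.6e-07). GRIK1, a kainate-type glutamate receptor subunit, had 9.49, 11.3 and 8.95 CPM with siNFYA, against 19.3 and 21.3 CPM with siKLF5. It was 2.03-fold lower (log2 -1.02, SE 0.169, adjusted p 0.000446). SI, the sucrase-isomaltase of the gut brush border, had 24.7, 24.3 and 22.0 CPM with siNFYA, against 35.8 and 40.7 CPM with siKLF5 (log2 -0.69, SE 0.11, adjusted p 0.00029). OPRK1, GRIK1 and SI passed without each library in turn.

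UGT2B17 and UGT2B15 encode enzymes that attach glucuronic acid to androgens for removal, and as close homologues they may share reads, which leaves the level of each uncertain. UGT2B17 had 218, 206 and 218 CPM with siNFYA, against 269 and 274 CPM with siKLF5 (log2 -0.34, SE 0.0459, adjusted p 2.97e-05). UGT2B15 had 153, 157 and 152 CPM with siNFYA, against 183 and 177 CPM with siKLF5 (log2 -0.22, SE 0.0478, adjusted p 0.00513). In both genes no siNFYA library reached the siKLF5 range.

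PCDH11Y, a protocadherin, had 90.8, 97.7 and 100 CPM with siNFYA, against 179 and 205 CPM with siKLF5 and 172, 182 and 174 CPM with control. It was 2.00-fold lower with siNFYA (log2 -1.0, SE 0.0669, adjusted p 2.84e-10). PCDH11X, its near-identical partner on the X chromosome, was also lower (log2 -0.81, adjusted p 0.0108), and reads may be split between them, so each value is uncertain.

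ADGRG6, an adhesion G protein-coupled receptor, had 588, 619 and 634 CPM with siNFYA, against 876 and 884 CPM with siKLF5 and 821, 848 and 877 CPM with control. The change was -0.52 (SE 0.0415, adjusted p 7.16e-09). MAST4, a microtubule-associated serine/threonine kinase, had 64.6, 67.2 and 68.0 CPM with siNFYA, against 109 and 110 CPM with siKLF5 (log2 -0.71, SE 0.0658, adjusted p 1.28e-07). For both, siKLF5 lay at or just above control and siNFYA far below.

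COL5A2, a chain of fibrillar type V collagen, had 17.5, 15.8 and 13.4 CPM with siNFYA, against 27 and 30.8 CPM with siKLF5 (log2 -0.88, SE 0.128, adjusted p 8.25e-05). LAMB1, a laminin chain of basement membranes, had 4.65, 4.28 and 2.77 CPM with siNFYA, against 8.65 and 6.19 CPM with siKLF5 (log2 -0.91, adjusted p 0.0199). COL5A2 passed without each library in turn, whereas LAMB1 did not pass without siKLF5 replicate 2 (adjusted p 0.193) or siNFYA replicate 3 (0.0714), within a range of 0.0129 to 0.813 over the alternatives.

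The rest of the 10 largest falls were of low level. SLC22A2, an organic cation transporter, changed by -1.01 (adjusted p 0.0326), BVES, a membrane protein of cell contacts, by -0.97 (0.0428), VEGFB, a vascular growth factor, by -0.96 (0.0279) and AMOTL1, a tight-junction protein of Hippo signalling, by -1.19 (0.0221). Their group means were 2.50 to 4.44 CPM with siNFYA, against 5.36 to 8.81 CPM with siKLF5. Those 4 did not pass without the library labelled siKLF5 replicate 3 (adjusted p 0.0768 to 0.281), and each did not pass without at least 1 siNFYA library. BLOC1S5-TXNDC5, a readthrough of a pair of neighbouring genes, had 0, 2.23 and 0 CPM with siNFYA, against 10.4 and 6.61 CPM with siKLF5. It passed (adjusted p 0.0114), but its reads overlap those of both parent genes and the value is uncertain; it did not pass without siKLF5 replicate 2 (adjusted p 0.0585) or siNFYA replicate 1 (0.0576), the highest values over its alternatives being 0.0585 and the lowest 8e-17.

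Further cell-surface and regulatory genes were chosen after their values were seen. JAG1, a Notch ligand, had 29.9, 29.3 and 33.5 CPM with siNFYA, against 47.8 and 48.7 CPM with siKLF5 (log2 -0.65, SE 0.0886, adjusted p 3.98e-05). CD274, the immune checkpoint ligand PD-L1, had 16.8, 15.1 and 11.9 CPM with siNFYA, against 23.7 and 24.1 CPM with siKLF5 (log2 -0.70, SE 0.132, adjusted p 0.00181). SMARCA5, the ATPase of ISWI chromatin remodelling complexes, had 86.7, 80.2 and 85.5 CPM with siNFYA, against 130 and 125 CPM with siKLF5 (log2 -0.60, SE 0.0564, adjusted p 1.59e-07). In these 3 genes siKLF5 lay close to control and siNFYA was the group that stood apart. IL6R, the interleukin-6 receptor, was the reverse in sign: 59.6, 59.8 and 58.4 CPM with siNFYA, against 37.7 and 44.5 CPM with siKLF5 (log2 0.53, SE 0.0829, adjusted p 0.00022). AOC1, which degrades histamine and polyamines, had 1.07, 1.71 and 0.426 CPM with siNFYA, against 4.92 and 4.4 CPM with siKLF5 (log2 -2.05, SE 0.394, adjusted p 0.00197).

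Beyond the kallikreins, the 10 largest rises were of modest level and less stable. IRF9, which carries interferon signals to DNA, had 5.01, 7.88 and 8.10 CPM with siNFYA, against 3.86 and 3.03 CPM with siKLF5 (log2 1.01, SE 0.292, adjusted p 0.0391). PPP2R3B, a regulatory subunit of phosphatase 2A, had 14.5, 14.4 and 11.1 CPM with siNFYA, against 7.85 and 6.61 CPM with siKLF5 (log2 0.89, SE 0.206, adjusted p 0.00993). MXD3, a MAX-binding factor of the MYC network, had 10.6, 9.25 and 10.2 CPM with siNFYA, against 5.99 and 6.06 CPM with siKLF5 (log2 0.73, SE 0.201, adjusted p 0.0301). OAT, TMEM107, TEX30 and GTF2H4 were higher by 0.62 to 0.75. FAM50A had 80.7, 72.8 and 181 CPM with siNFYA, against 64.9 and 71.6 CPM with siKLF5, so its change of 0.67 was carried by siNFYA replicate 3 and did not pass without it (adjusted p 0.213). MXD3 did not pass without any single library (adjusted p 0.0563 to 0.171). Without the library labelled siKLF5 replicate 3, 3 of the 10 largest rises still passed (KLK2, KLK3 and GTF2H4; 0.135 to 0.281 for the others) and 6 of the 10 largest falls. MYC itself, outside this group, had 174, 192 and 191 CPM with siNFYA, against 143 and 154 CPM with siKLF5 (log2 0.32, SE 0.0561, adjusted p 0.000754).

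On chromosome 3 the neighbouring genes MYNN and ACTRT3 were both lower with siNFYA, and SEC62, further along, was higher. MYNN, a zinc-finger protein of the BTB family (169772831 to 169789716), had 52.3, 55.3 and 50.5 CPM with siNFYA, against 97.9 and 96.5 CPM with siKLF5 and 73.4, 84.9 and 77.1 CPM with control. The groups did not overlap, and here control lay in the middle with siNFYA lowest. MYNN changed by -0.88 (SE 0.0656, adjusted p 2.14e-09); against control it was -0.57 with siNFYA (adjusted p 7.81e-07) and 0.31 with siKLF5 (adjusted p 0.00798). ACTRT3, an actin-related protein whose gene runs head to head with MYNN with 2935 bases between them, had 7.34, 5.31 and 5.33 CPM with siNFYA, against 16.0 and 14.0 CPM with siKLF5. It was 2.49-fold lower (log2 -1.32, SE 0.226, adjusted p 0.00064), and both passed without each library in turn.

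SEC62 (169966635 to 169998373 on the same chromosome), a part of the translocon that takes proteins into the endoplasmic reticulum, went the other way. It had 141, 133 and 140 CPM with siNFYA, against 87.8 and 95.5 CPM with siKLF5 and 151, 145 and 155 CPM with control. Here siNFYA lay near control and siKLF5 was the group that stood apart. SEC62 was higher by 0.59 with siNFYA (SE 0.0607, adjusted p 9.11e-07); against control it was -0.13 with siNFYA (adjusted p 0.105) and -0.71 with siKLF5 (adjusted p 2.72e-08).

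BRI3BP, the BRI3-binding protein, and RAD1, a subunit of the DNA damage clamp, had the pattern of SEC62, and all 3 were chosen after their values were seen. BRI3BP had 98.6, 106 and 110 CPM with siNFYA, against 74.0 and 70.7 CPM with siKLF5 and 100, 101 and 96.8 CPM with control (log2 0.53 between the knockdowns, SE 0.0616, adjusted p 3.05e-06). RAD1 had 45.8, 43.2 and 43.1 CPM with siNFYA, against 32.1 and 29.6 CPM with siKLF5 and 44.4, 43.4 and 40.3 CPM with control (log2 0.51, SE 0.0926, adjusted p 0.00107). Both libraries labelled siKLF5 lay below every siNFYA and control library for SEC62, BRI3BP and RAD1. Since the genes were chosen with these values known, this is a description and no test of either library. Their log2 changes against control with siKLF5 were -0.45 for BRI3BP (adjusted p 0.000116) and -0.47 for RAD1 (0.00792).

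The window before BRI3BP is given beside that of KLK3 because both genes were lowest with siKLF5; it is RefSeq sequence on GRCh38.p14, plus strand, chr12:124993395-124993644, with the same motifs in capitals.

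BRI3BP: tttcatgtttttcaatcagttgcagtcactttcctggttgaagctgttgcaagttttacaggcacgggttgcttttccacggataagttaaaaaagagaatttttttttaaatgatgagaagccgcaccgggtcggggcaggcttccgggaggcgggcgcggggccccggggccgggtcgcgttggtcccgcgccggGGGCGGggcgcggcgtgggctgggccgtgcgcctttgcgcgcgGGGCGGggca

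It holds 2 GGGCGG matches, and none of the other 3 motifs (the CACCC motif, the CCAAT box and the AGAACA half-site).

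**Figure D3:**
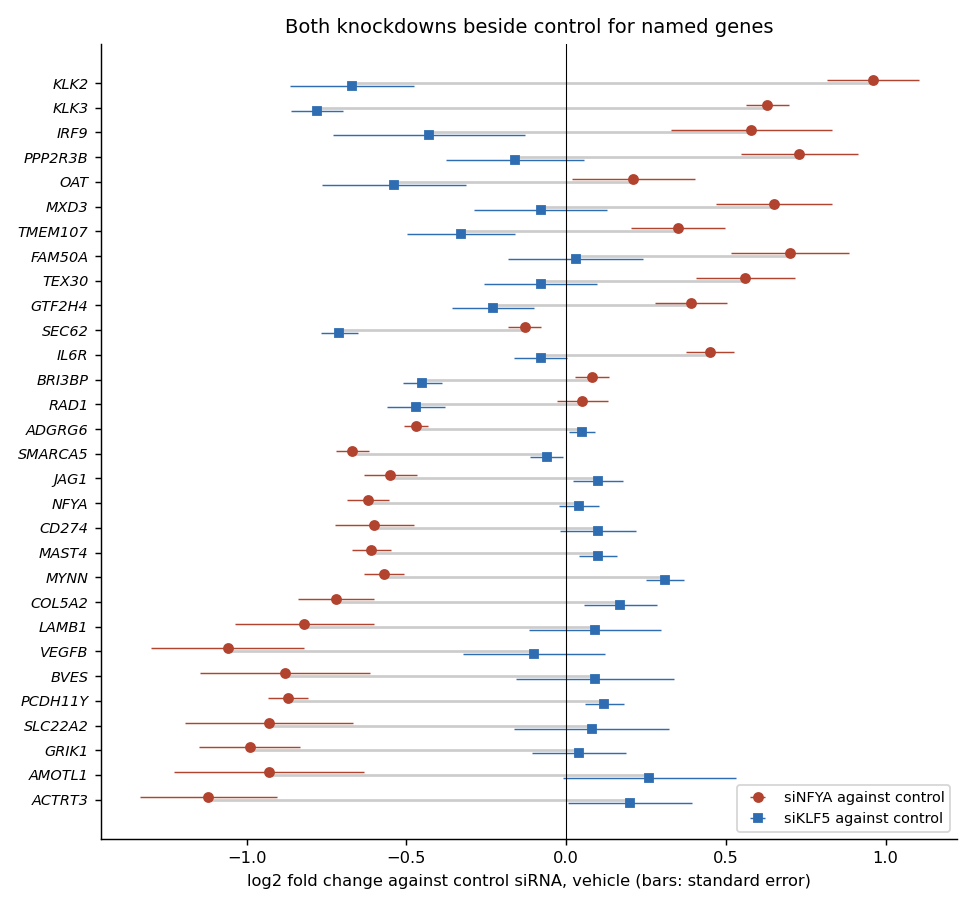
Log2 fold change against control siRNA in vehicle for siNFYA (circles) and siKLF5 (squares), with standard errors, for the largest rises and falls other than BLOC1S5-TXNDC5, the genes with the smallest p, and genes chosen after their values were seen. KLK3 and KLK2 lie on opposite sides of control, SEC62, BRI3BP and RAD1 are displaced with siKLF5, and the lower block from ADGRG6 down is displaced with siNFYA; both sets of values share the control libraries.

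In the lists for metabolism and growth most members did not pass, and those that passed were mostly higher with siNFYA than with siKLF5. Several of the lists share members with other lists, so their counts are not independent. Against control, the list medians with siNFYA and siKLF5 were 0.089 and -0.047 for glycolysis and 0.239 and 0.08 for the ATF4 response. They were 0.163 and 0.027 for serine and glycine metabolism and 0.081 and -0.023 for purine and pyrimidine synthesis. For S phase they were 0.125 and -0.037, for G2/M 0.093 and -0.002 and for p53 targets 0.026 and -0.054. The counts that follow stand against 2.35% higher, 3.64% lower and 51.2% above 0 among all genes tested. In glycolysis 5 of 28 tested genes were higher and 0 lower, with a median of 0.142 and 25 of 28 above 0. They were ENO1 (enolase), PFKM and PFKL (phosphofructokinase subunits), TPI1 (triose-phosphate isomerase) and LDHB (lactate dehydrogenase). ENO1 had 1050, 1040 and 1070 CPM with siNFYA, against 941 and 850 CPM with siKLF5 (log2 0.23, SE 0.0415, adjusted p 0.00088). Among genes of the ATF4 amino acid response 8 of 40 were higher and 0 lower (median 0.133). They included DDIT4, an inhibitor of mTORC1, GDF15, a stress cytokine, PCK2, mitochondrial PEP carboxykinase, and ASNS, asparagine synthetase.

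DDIT4 had 190, 201 and 189 CPM with siNFYA, against 153 and 142 CPM with siKLF5 (log2 0.39, SE 0.055, adjusted p 5.17e-05), and it passed under all 15 alternatives. GDF15 had 127, 139 and 125 CPM with siNFYA, against 105 and 98.3 CPM with siKLF5 (log2 0.36, SE 0.0682, adjusted p 0.00158). In serine and glycine metabolism 6 of 24 were higher and 1 lower (median 0.127). In purine and pyrimidine synthesis 5 of 28 were higher and 0 lower (median 0.088), among them APRT, which salvages adenine (log2 0.35, adjusted p 0.00213), and TYMS, thymidylate synthase (log2 0.20, adjusted p 0.0447).

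For DNA replication and S phase 7 of 48 were higher and 0 lower (median 0.167, 43 of 48 above 0). CDC6, which loads the replicative helicase, had 70.4, 68.9 and 77.4 CPM with siNFYA, against 52.7 and 57.7 CPM with siKLF5 (log2 0.38, SE 0.0774, adjusted p 0.00318). MCM5, a helicase subunit, had 77.9, 79.2 and 77.8 CPM with siNFYA, against 66.0 and 62.5 CPM with siKLF5 (log2 0.28, adjusted p 0.00495). Among G2/M genes 5 of 46 were higher and 0 lower (median 0.119): ANLN, PLK1, CDK1, CKS2 and MAD2L1. ANLN, a scaffold of the cytokinetic ring, had 79.5, 77.6 and 84.0 CPM with siNFYA, against 59.9 and 68.3 CPM with siKLF5 (log2 0.32, adjusted p 0.00801). Of 30 p53 targets, 3 were higher and 1 was lower (median 0.116). CDKN1A, the p21 inhibitor of cyclin-dependent kinases, had 110, 117 and 104 CPM with siNFYA, against 92.9 and 75.8 CPM with siKLF5 (log2 0.39, SE 0.077, adjusted p 0.00258).

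Cytosolic ribosomal protein genes had 10 of 77 higher and 0 lower (median 0.112, 72 of 77 above 0). Against control their median was -0.007 with siNFYA and -0.116 with siKLF5, where 0 of 77 lay above 0. RPS28 had 395, 408 and 372 CPM with siNFYA, against 341 and 294 CPM with siKLF5 (log2 0.30, SE 0.0554, adjusted p 0.00115). Nuclear-encoded oxidative phosphorylation genes had 4 of 69 higher and 0 lower (median 0.089). Their median against control was -0.018 with siNFYA and -0.091 with siKLF5. The 13 mitochondrially encoded mRNAs had 0 that passed in edgeR (median 0.060), while 1 did at an unadjusted p under 0.05 and 0 in DESeq2. Against control 12 of these 13 were higher with siNFYA and 11 with siKLF5 (medians 0.558 and 0.505). For ENO1, APRT, CDKN1A and RPS28 the library labelled siKLF5 replicate 3 lay below replicate 2. Without it, 0 genes of glycolysis, 2 of the ATF4 response, 0 of serine and glycine metabolism, 1 of purine and pyrimidine synthesis, 2 of S phase, 1 of G2/M, 0 p53 targets, 0 ribosomal protein genes and 0 oxidative phosphorylation genes were higher. Without siKLF5 replicate 2 those counts were 7, 11, 6, 4, 4, 3, 5, 38 and 18. DDIT4, GDF15, CDC6 and ANLN still passed without replicate 3, though ANLN did not without replicate 2 (adjusted p 0.0995), and ENO1 (adjusted p 0.0696), APRT (0.106), TYMS (0.106), MCM5 (0.101), CDKN1A (0.132) and RPS28 (0.0891) did not. Over all alternatives the highest adjusted p of these was 0.0883 for ENO1, 0.106 for APRT, 0.243 for TYMS, 0.680 for MCM5, 0.142 for CDKN1A and 0.166 for RPS28.

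Few members of the lipid lists passed, where 2.35% of all genes were higher and 3.64% lower. In fatty acid synthesis and desaturation 2 of 28 were higher, SREBF1, the lipogenic factor SREBP1, and MLYCD, malonyl-CoA decarboxylase, and 1 was lower, the desaturase FADS2. FADS2 had 563, 602 and 635 CPM with siNFYA, against 665 and 720 CPM with siKLF5 (log2 -0.21, SE 0.0473, adjusted p 0.00913; 0.201 without the library labelled siKLF5 replicate 3, the range being 0.0003 to 0.414). In fatty acid oxidation 1 of 28 was higher, AMACR, a racemase abundant in prostate cancer, and 2 were lower, CPT1A, the mitochondrial carnitine palmitoyltransferase, and PPARA, a lipid-sensing nuclear receptor. In cholesterol synthesis and uptake 0 of 27 were higher and 2 were lower, TM7SF2 and SC5D, both enzymes of late sterol synthesis. The heme, iron and redox list had 0 of 23 that passed in edgeR (5 did at an unadjusted p under 0.05 and 1 in DESeq2), the tricarboxylic acid cycle had 1 of 28 higher and the heat shock proteins 2 of 20 higher. Without the library labelled siKLF5 replicate 3, 1 gene of cholesterol synthesis was lower, and 0 genes of fatty acid synthesis, fatty acid oxidation, the tricarboxylic acid cycle or the heat shock list passed in edgeR. The balance turned without siKLF5 replicate 2, with 2 higher and 0 lower in cholesterol synthesis and 5 higher and 1 lower in fatty acid oxidation. In the same fit fatty acid synthesis and the tricarboxylic acid cycle each had 1 higher and 1 lower, the heat shock list had 2 higher, and the heme, iron and redox list had 1 higher.

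In the remaining response lists most members did not pass, where 2.35% of all genes were higher and 3.64% lower. In the hypoxia response 2 of 23 were higher, VEGFA and HILPDA, a lipid droplet protein, and 3 were lower, VEGFB, EGLN1 and P4HA1, the last 2 being prolyl hydroxylases. In polyamine metabolism 2 of 16 were higher, AMD1 and SRM, both enzymes of synthesis, and 1 was lower, AOC1. In the hexosamine pathway and glycosylation 2 of 21 were lower, GFPT1, the first enzyme of the pathway, and the fucosyltransferase FUT8. The interferon list had IRF9 higher and HERC6 lower among 36, the endoplasmic reticulum list had XBP1 higher among 30, and the immediate early list had MYC higher among 14. Of 18 nuclear-retained transcripts 2 were higher, DDX39B, an mRNA export helicase, and CCNL1, a cyclin of splicing speckles. Against control, 14 of the 18 were higher with siNFYA and 10 with siKLF5 (medians 0.621 and 0.457), where 6.04% and 0.58% of all genes were. In edgeR, 0 hypoxia genes and 0 hexosamine genes passed without the library labelled siKLF5 replicate 3, the polyamine list had 1 higher and 1 lower, the interferon and endoplasmic reticulum lists each had 0 higher and 1 lower, and the immediate early and nuclear-retained lists each had 1 higher. Without siKLF5 replicate 2 the interferon list had 2 higher and 0 lower, the endoplasmic reticulum list 5 higher and 2 lower, the hypoxia list 3 higher and 2 lower, the polyamine list 3 higher and 1 lower and the immediate early list 2 higher, while the hexosamine list had 1 lower and the nuclear-retained list 1 higher.

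Luminal markers split. Of 21 tested, 2 were higher, which were KLK3 and KLK2, and 4 were lower: HOXB13 and FOXA1, factors of prostate lineage, FOLH1, the surface antigen PSMA, and ACPP, prostatic acid phosphatase. Leaving out the library labelled siKLF5 replicate 3, 2 were higher and 1 was lower. HOXB13 had 435, 421 and 424 CPM with siNFYA, against 487 and 477 CPM with siKLF5 (log2 -0.18, SE 0.0373, adjusted p 0.00487). FOLH1 had 1360, 1320 and 1290 CPM with siNFYA, against 1440 and 1460 CPM with siKLF5 (log2 -0.13, SE 0.0376, adjusted p 0.0395; 0.221 without the library labelled siKLF5 replicate 3, the range being 0.00287 to 0.221). Stromal markers summed to 10.4 to 16.3 CPM with siNFYA, against 18.5 to 19.8 CPM with siKLF5 and 16.1 to 16.8 CPM with control. COL1A1, a fibrillar collagen chain, changed by -0.60 between the knockdowns (adjusted p 0.00993 in edgeR). It did not pass without the library labelled siKLF5 replicate 3, and over the alternatives its adjusted p ran from 0.0079 to 0.203. The part of the stromal markers in the matrix genes above was not tested. All libraries came from the LNCaP line, and bulk RNA cannot tell fewer cells with a transcript from less of it per cell.

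**Figure D4:**
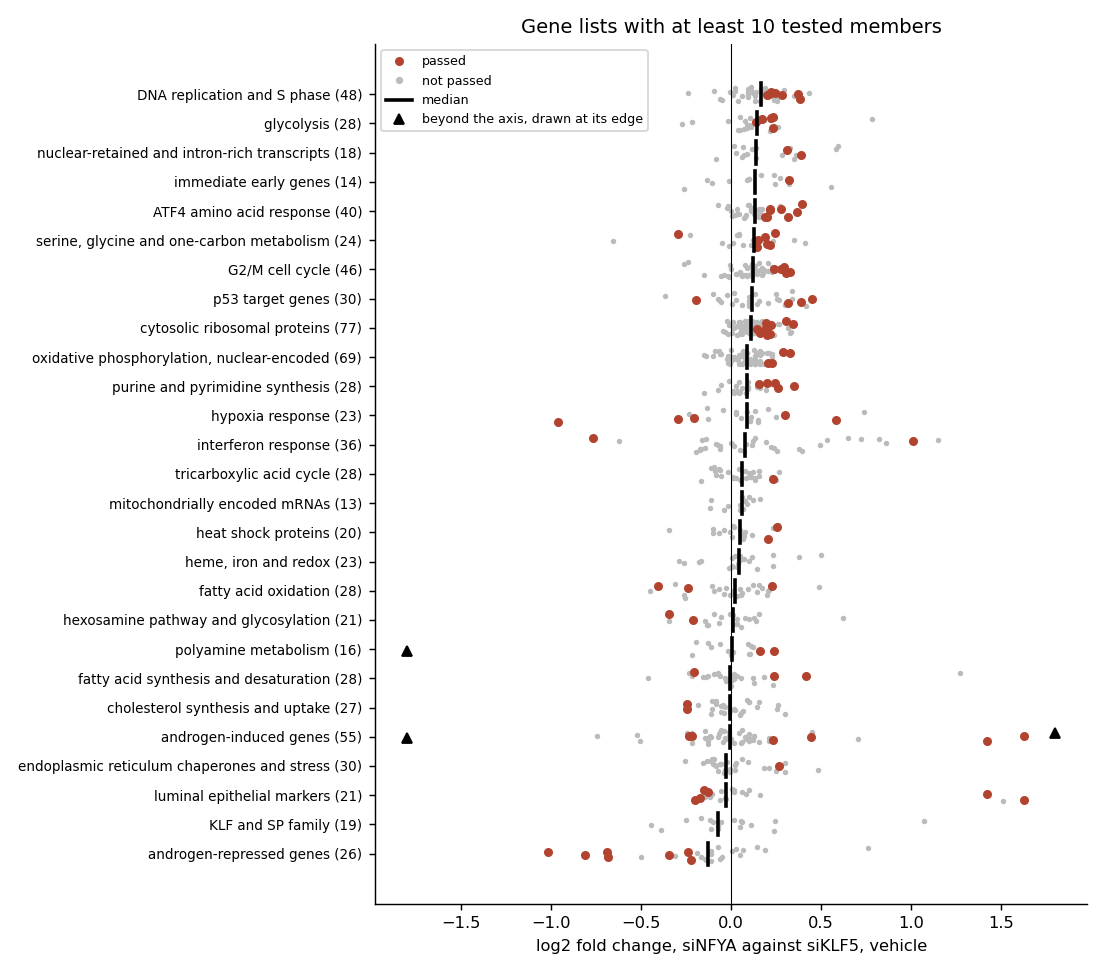
Log2 fold change of siNFYA against siKLF5 in vehicle for each tested member of the lists with at least 10 tested members (number in brackets), ordered by list median (black bar); members that passed are red. Medians lie within a narrow band around 0, from -0.128 for androgen-repressed genes to 0.167 for S phase, with KLK3 and KLK2 as the largest rises drawn as red points.

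The same contrast in R1881 used other libraries. There 494 genes passed (3.82%), 193 higher (1.49%) and 301 lower (2.33%). The 139 genes that passed in vehicle and in R1881 in the same direction (37 higher, 102 lower) were 18.0% of the genes that passed in vehicle and 28.1% of those in R1881, and 5 genes passed in opposite directions. Of the 304 genes higher in vehicle, 80.9% were above 0 in R1881, where 48.7% of all genes were, and of the 470 lower in vehicle 85.1% were below 0, against 51.2% of all genes. The size was smaller in R1881: the median of the higher genes was 0.294 in vehicle and 0.085 in R1881, and that of the lower genes was -0.289 in vehicle and -0.115 in R1881. The genes were picked for their values in vehicle, so the vehicle medians are a description.

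SMARCA5, PCDH11Y, SEC62, BRI3BP and CD274 passed in the same direction in both treatments. SMARCA5 was at -0.60 in vehicle and -0.64 in R1881, where it had 83.0, 80.9 and 78.7 CPM with siNFYA, against 131, 129 and 117 CPM with siKLF5. SEC62 was at 0.59 in vehicle and 0.76 in R1881, where it had 205, 220 and 216 CPM with siNFYA, against 137, 118 and 123 CPM with siKLF5. PCDH11Y was at -1.0 in vehicle and -1.09 in R1881, BRI3BP at 0.53 and 0.49, and CD274 at -0.70 and -0.85. All 5 passed in R1881 (adjusted p 0.00041 or less), and the difference between the treatments did not pass for any of them (adjusted p 0.443 to 0.919), which does not show equal changes.

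For 86 genes (0.666%) the contrast itself differed between vehicle and R1881, tested as an interaction, with 40 differences above 0 (0.31%) and 46 below (0.356%). Without the library labelled siKLF5 replicate 3 there were 39, and without siKLF5 replicate 2 there were 129. KLK3 had the smallest p: siNFYA against siKLF5 was 1.42 in vehicle and 0.34 in R1881, a difference of 1.08 (SE 0.0932, adjusted p 1.7e-07). In R1881, KLK3 had 4180, 4260 and 4130 CPM with siNFYA, against 3320, 3360 and 3260 CPM with siKLF5. The gene was thus higher with siNFYA in both treatments, at a far higher level in R1881 and by a smaller ratio there. KLK2 was similar, at 1.63 in vehicle and 0.42 in R1881 (difference 1.21, adjusted p 0.00111).

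MYNN was at -0.88 in vehicle and 0.15 in R1881, where it had 29, 31.0 and 29.2 CPM with siNFYA, against 26.9, 27.6 and 26.0 CPM with siKLF5 (difference -1.03, adjusted p 1.01e-05). UGT2B15 turned over: it was at -0.22 in vehicle and 0.54 in R1881, with 23.6, 26.8 and 29.4 CPM with siNFYA, against 18.2 CPM in each of 3 siKLF5 libraries in R1881 (difference -0.76, adjusted p 0.000559), and it passed in both treatments. HMGB2, a chromatin protein of dividing cells, turned the other way, with 0.22 in vehicle (adjusted p 0.0221; 0.0625 without the library labelled siKLF5 replicate 3 and 0.112 without replicate 2) and -0.41 in R1881 (adjusted p 0.000636), a difference of 0.63 (adjusted p 0.000559).

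TBRG1, a growth inhibitor known as NIAM, was at -0.44 in vehicle and 0.05 in R1881 (difference -0.49, adjusted p 0.000559). In vehicle it had 93.3, 91.7 and 90.4 CPM with siNFYA, against 121 and 128 CPM with siKLF5 and 102, 103 and 106 CPM with control. The 3 groups did not overlap, and siNFYA was lowest, as for MYNN. Its window is printed because, unlike those of KLK3 and BRI3BP, it holds a CCAAT box (as ATTGG); it is RefSeq sequence on GRCh38.p14, plus strand, chr11:124622614-124622863, with motifs in capitals.

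TBRG1: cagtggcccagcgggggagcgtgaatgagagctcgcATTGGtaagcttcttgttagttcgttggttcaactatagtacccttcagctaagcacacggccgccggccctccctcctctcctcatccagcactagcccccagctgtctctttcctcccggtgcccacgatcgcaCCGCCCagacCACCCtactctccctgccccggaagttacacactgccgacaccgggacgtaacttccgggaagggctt

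It has 1 CCAAT, 1 CACCC and 1 GGGCGG match on either strand. Among genes with a window, a CCAAT match was found in 31.6% of those lower with siNFYA, against 35.6% of all.

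The medians of the cell cycle lists had opposite signs in the treatments. The S phase median was 0.167 in vehicle and -0.149 in R1881, where 0 of 48 were higher and 5 lower, and the interaction passed for 6 of 48. The G2/M median was 0.119 in vehicle and -0.182 in R1881, where 0 of 46 were higher and 7 lower, and the interaction passed for 7 of 46. Over all genes 1.49% were higher and 2.33% lower in R1881, and the interaction passed for 0.666%. The interaction passed for 4 genes of each list without the library labelled siKLF5 replicate 3, and without siKLF5 replicate 2 for 5 of each. CDK1, the mitotic kinase, had 207, 191 and 213 CPM with siNFYA, against 186 and 159 CPM with siKLF5 in vehicle, and 74.4, 67.6 and 63.5 CPM with siNFYA, against 74.4, 80.4 and 77.7 CPM with siKLF5 in R1881. Its contrast was 0.24 in vehicle (adjusted p 0.0165; 0.357 without the library labelled siKLF5 replicate 3) and -0.18 in R1881 (adjusted p 0.223), and the difference of 0.42 passed (adjusted p 0.0352). For the ATF4 list the medians were 0.133 in vehicle and -0.049 in R1881, and the interaction passed for 3 of 40, for 0 in edgeR without the library labelled siKLF5 replicate 3 and for 7 without siKLF5 replicate 2.

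**Figure D5:**
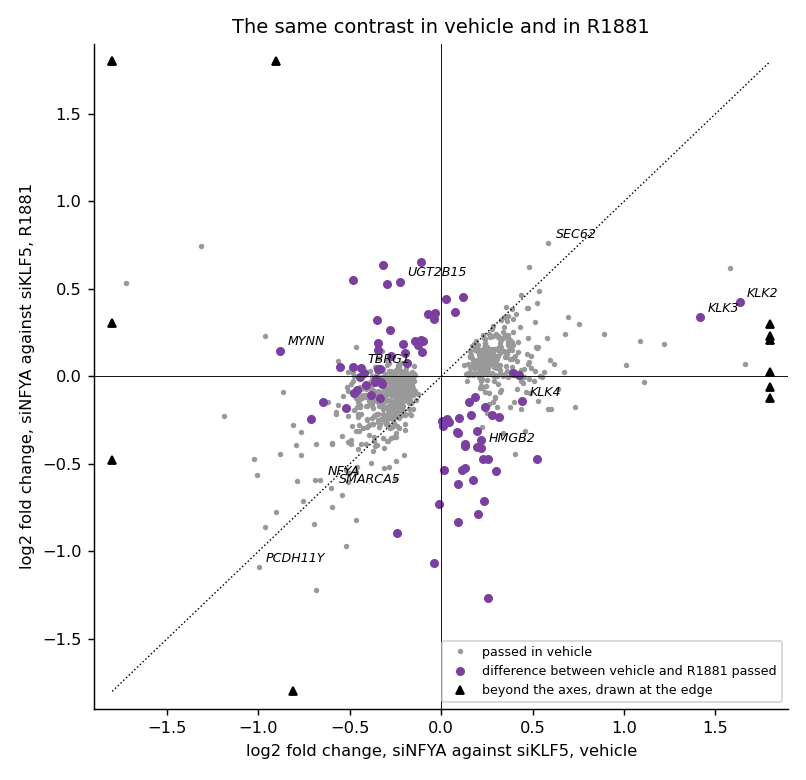
Log2 fold change of siNFYA against siKLF5 in vehicle (x axis) and in R1881 (y axis) for genes that passed in vehicle (grey) and for the 86 genes whose difference between treatments passed (purple); the dotted line marks equal changes. PCDH11Y, SMARCA5 and SEC62 lie near it, whereas KLK3, KLK2 and MYNN lie nearer to the zero line of R1881, and UGT2B15 and HMGB2 lie in quadrants of opposite sign.

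Motif shares were counted over all promoters. RefSeq gave a window of 250 bases before the start for 9762 of the 12922 tested genes. A CCAAT match on either strand was found in 36.7% of the higher and 31.6% of the lower genes, against 35.6% of all. CACCC was found in 55.7% of the higher and 65.3% of the lower genes, against 57.5% of all, and GGGCGG in 69.2% of the higher and 73.3% of the lower genes, against 68.1% of all. AGAACA was found in 9.7% of the higher and 6.9% of the lower genes, against 7.2% of all. Among genes that changed at least 1.5-fold, of which 15 higher and 26 lower had a window, the shares were 26.7% and 26.9% for CCAAT. They were 60% and 61.5% for CACCC, 80% and 88.5% for GGGCGG, and 20% and 3.8% for AGAACA, from so few genes that 1 gene moves a share by several percent. Matches of CACCC can share letters with those of GGGCGG, and the shares are descriptions without a test.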

How the data were processed

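RNA sequencing libraries of LNCaP cells were analysed from deposited tables. Per the labels' protocols, RNA was purified with a kit and made into strand-specific libraries. FastQC, Trimmomatic, kallisto, DESeq2 and GRCh38 are named, without versions, in the submitters' processing notes. Estimated counts for each gene fill the deposited tables, made by the authors with kallisto per the submitters' processing notes, and further deposited tables join to each estimated count a TPM value and another unnamed value, left unused here. The siNFYA and siKLF5 columns lie in separate tables whose 6 shared control columns were identical, so counts were joined by gene identifier (34912 genes, 34846 found in GENCODE release 29).

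Estimated counts were rounded to whole numbers, filtered with filterByExpr, scaled by TMM and then compared by quasi-likelihood F tests (edgeR 4.0.16, R 4.3.3). The model held 6 group means (17 libraries), a contrast for each comparison and Benjamini-Hochberg adjustment over 12922 genes. Standard errors come from the change and its F statistic. Replicate libraries differed by more than counting error (chi-square per degree of freedom 2.19 to 13.22). Depth was 4416653 to 6872421 estimated counts. Alternatives changed the scaling, filter, tool (DESeq2 1.42.0, limma 3.58.1), unit, libraries fitted, depth and replicates. Exact Poisson intervals used SciPy 1.17.1, and they cover counting error only.

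Named genes were the 10 largest rises and falls among protein-coding genes that passed whose higher group reached 5 CPM or more, with non-overlapping libraries, the 5 with the smallest p, up to 4 that passed per list, 5 for the interaction, and fixed readouts. Others are said to be chosen after their values were seen. The comparison, the members and the 33 lists (922 genes) were chosen with earlier results of these data known. A fixed readout and a list member are not reported here.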

Additional observations from a re-analysis of the deposited data

Results flagged for a closer look

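For 86 genes the difference between siNFYA and siKLF5 was not the same in vehicle and in R1881, by the interaction term of edgeR's fit. Among the genes named above, the log2 difference (vehicle minus R1881) was above 0 for KLK2 (1.21), KLK3 (1.08), HMGB2 (0.63), TYMS (0.60), KLK4 (0.59), SESN2 (0.54), CKS2 (0.50), CDK1 (0.42) and DDIT4 (0.37). It was below 0 for MYNN (-1.03), UGT2B15 (-0.76), UGT2B17 (-0.50), JAG1 (-0.50), TBRG1 (-0.49), MAST4 (-0.47), FADS2 (-0.39) and ADGRG6 (-0.34). KLK2 and KLK3 were higher with siNFYA in both treatments, while UGT2B15, HMGB2, TYMS and FADS2 passed in both with opposite signs.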

How the results depend on the processing

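Under the 15 alternatives 0 of the 774 genes passed in the opposite direction, and 10 of the 102 named genes that passed did so under every one in which they could be tested. Among the fits that leave out 1 library, the one without siKLF5 replicate 3 left 225 calls, the fewest, and 40 of the 102 named genes still passed, against 79 without siKLF5 replicate 2 and 78 without siNFYA replicate 3. The cause of these changes was not tested, beyond the loss of a library itself. For siNFYA against siKLF5 in vehicle, 774 genes passed, against 480 with DESeq2, 66 with limma on log2(TPM + 1) and 271 with only the groups compared; leaving out 1 library gave 225 to 1002. For siNFYA against control (1586) DESeq2 gave 941 and the TPM fit 494, and leaving out 1 library gave 1002 to 1447. For siKLF5 against control (108) the TPM fit gave 7, no count filter 333, thinned counts 64 and vehicle groups alone 64, with 21 to 237 without 1 library. In R1881 (494) DESeq2 gave 287 and the TPM fit 89, with 241 to 398. For the interaction (86) the TPM fit gave 12, no count filter 224 and only the groups compared 48, with 39 to 129. Of the vehicle calls, 39.28% were higher, against 28.55% with library totals, 29.79% without mitochondrial and rRNA-like genes and 27.5% with DESeq2. Thinning every library to the smallest total left 572 calls. No paired analysis was possible because the numbers in the labels run on through the series and none recurs between groups.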
